A study of Citrus x limon with 9 samples.

Results

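Buds of rewatered lemon trees were compared with buds of the same cultivar before any water was withheld. The comparison used 6 of the 9 RNA-seq libraries, chosen by their stage label: 3 of stage 1, taken 1 week before the deficit began, and 3 of stage 3, taken 1 week after irrigation had returned. Both are watered states, so the question was which transcripts differed once the deficit was over. The 3 libraries of stage 2, from trees 1 week into the deficit, are given beside the others where they help to place a value.

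All trees were Femminello lemon (Citrus x limon) grafted on trifoliate orange rootstock, about 2 years old, potted and kept in a greenhouse under the natural photoperiod of June and July. Every library was made from a terminal bud with the 5 buds below it on flushes, and the 3 biological repeats of a stage came from 3 groups of 3 trees. Before stage 1 the trees had been watered to saturation every 2 days. Those of stage 3 had passed through a 2-week deficit that brought soil moisture down to about 50% of the watered level, and were then fully watered again. According to the study's methods, flower buds could be seen by eye once the trees had been rewatered. No libraries from continuously watered trees of the later dates were used here, so the deficit episode, the later date and the further development of the buds cannot be told apart in what follows.

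Plants answer drought with abscisic acid (ABA), which acts through receptors, protein phosphatases 2C and kinases on transcription factors such as ABI5, and late embryogenesis abundant (LEA) proteins protect membranes and proteins as cells dry. Heat shock proteins are chaperones that hold or refold other proteins, and their genes are driven by heat stress transcription factors. Growth after water returns requires loosening of the cell wall, where expansins and xyloglucan endotransglucosylase/hydrolases (XTHs) act. In citrus, drought followed by water is a natural trigger of flowering, which in plants in general runs through the circadian clock, CONSTANS-like and SPL transcription factors, the FT family of mobile signals and MADS-box factors. These roles are background, known mostly from Arabidopsis.

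Expression was deposited as FPKM, that is, fragments scaled for gene length and for the mapped fragments of the library, for 22353 genes of the sweet orange annotation. Of these, 17729 reached 1 FPKM in at least 3 of the 9 libraries and were tested. FPKM values carry no counts, so the number of reads behind a value cannot be read from the files. Between 19956 and 20099 genes were above 0 in the stage 1 libraries and between 19716 and 19752 in those of stage 3, and the median FPKM was 13.29 to 13.46 and 13.53 to 13.91. Correlations of log values across genes were 0.9805 to 0.9821 among stage 1 libraries, 0.9769 to 0.9796 among stage 3 libraries and 0.9448 to 0.9504 between the stages, so the libraries grouped by their labels. These are correlations across genes, which are not independent replicates.

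The tissue label was checked against marker genes. Meristem genes, which mark the shoot apex, summed to 182.6 to 190.6 FPKM at stage 1 and 265.9 to 271 FPKM at stage 3, and none of the 8 tested was at 0 or called changed by the test described below. Within this sum Cs3g16460 alone went from 70.28–82.3 to 138.97–148.26 FPKM. Cs2g02590 and Cs6g02430 were higher as well, while Cs7g08990 and Cs3g15150 were lower, each without overlap, so the list did not rise as a whole. Floral organ identity genes summed to 35.9 to 38.95 and 34.34 to 35.51 FPKM, with 1 of 8 lower at stage 3. Light-harvesting genes, a mark of green cells, summed to 2013 to 2067 and 3893 to 4617 FPKM, with 4 of 7 higher. Genes of dividing cells summed to 825.2 to 872.6 and 655.7 to 752.8 FPKM, with 3 of 17 lower, and vascular genes to 30.29 to 32.94 and 29.93 to 31.71 FPKM, with 3 of 7 lower and 1 gene of the list at 0 in both stages. The summed levels overlapped between the stages for the vascular markers and for none of the other lists, and in such bulk samples fewer cells of a type and less RNA per cell cannot be told apart. The sums hide opposite moves. Among floral genes Cs7g11800 was higher and orange1.1t02588 lower, and the floral sums lay close. The vascular genes were all xylem cysteine proteinase-like, and orange1.1t02111 was higher, at 12.56–15.38 FPKM against 6.77–8.5 FPKM. The part of composition in the results below was not tested.

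A gene was called changed when limma, fitted to log2(FPKM + 1) of all 9 libraries, gave a Benjamini-Hochberg adjusted p under 0.05 for stage 3 against stage 1 and the log2 fold change was at least 1 in either direction. With these limits 874 genes, or 4.93% of those tested, differed between the buds before the deficit and the rewatered buds: 477 were higher (2.69%) and 397 lower (2.24%) at stage 3. In 867 of the 874 the 3 libraries of one stage lay wholly above those of the other, which was so for 43.7% of all genes tested. Genes called higher had a median of 6.74 FPKM at stage 1 and 22.89 FPKM at stage 3, and those called lower went from a median of 16.32 to 5.37 FPKM, while the median over all genes was 13.03 and 13.46 FPKM. Because 1 was added to each FPKM before the log, log2 fold changes below are too small for scarce genes, and p-values measure the spread between these libraries only.

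Function was read from the best protein match and the KEGG entry deposited with each gene and from the study's gene descriptions. Among the 874 genes, 460 matched only a hypothetical or uncharacterized protein and 531 had a KEGG entry. The 37 gene lists described below held 225 of the 874 genes. List sizes include members found by KEGG entry, and the counts by protein match alone are given where they differ in direction.

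**Figure D1:**
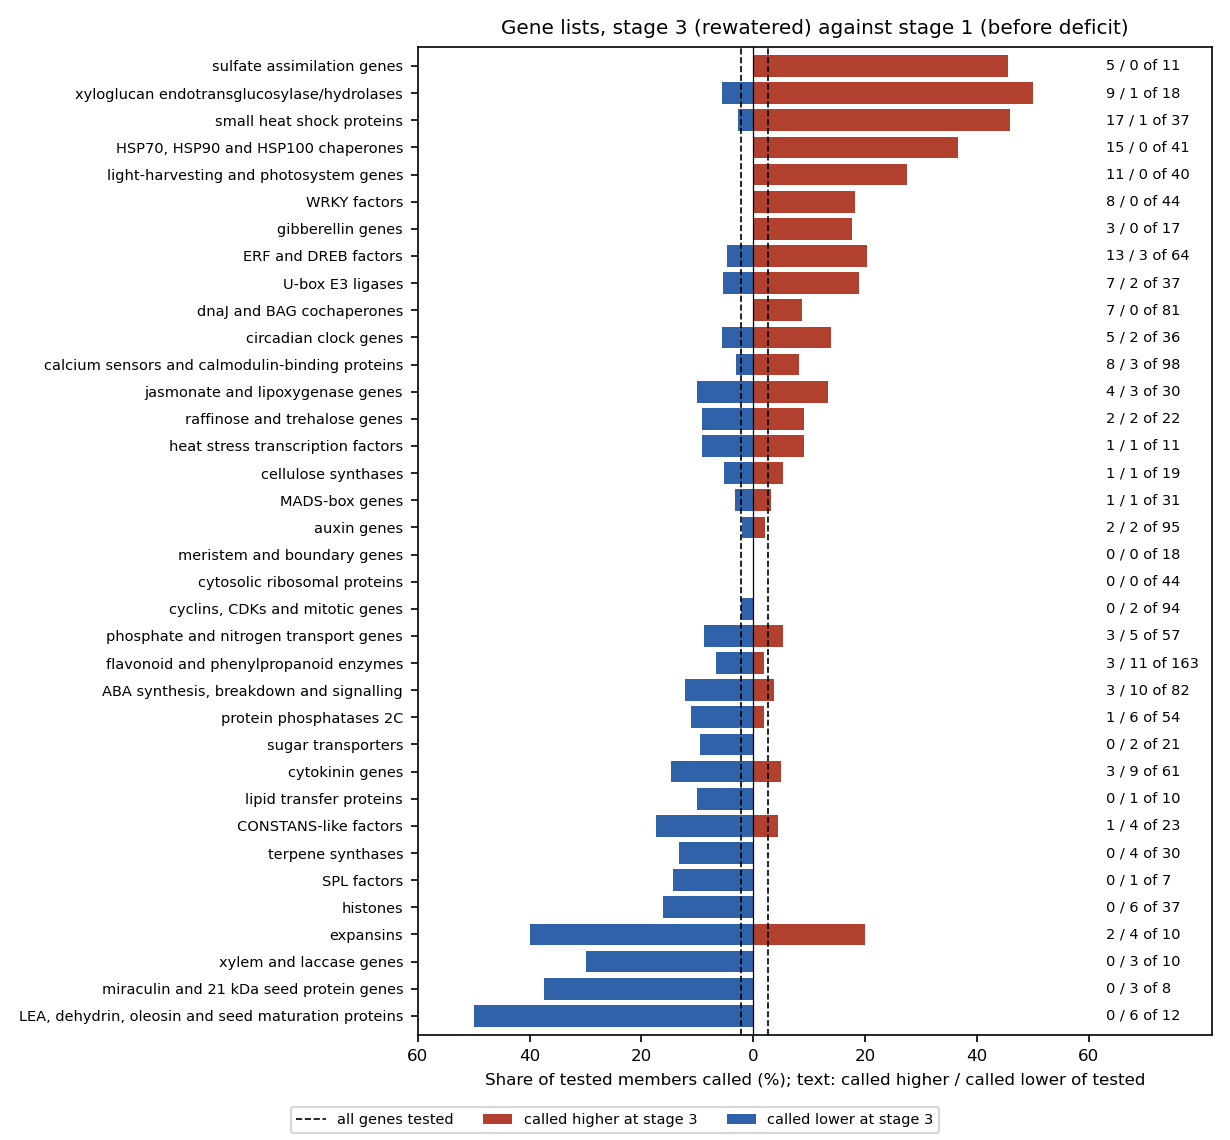
Share of the tested members of each gene list (percent, horizontal axis) called higher (red, to the right) or lower (blue, to the left) at stage 3 than at stage 1, with the counts at the right and the shares over all genes tested, 2.69% and 2.24%, as dashed lines. Sulfate, XTH and heat shock lists lie farthest to the right, and the LEA list, with none called higher, reaches farthest to the left. Lists with fewer than 5 tested members are not drawn.

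Small heat shock proteins bind unfolding proteins and keep them soluble. Of 37 tested members 17 were higher and 1 lower (5 and 1 of 10 by protein match alone), with a median log2 fold change of 1.06 against 0.01 over all genes. A class I member, Cs8g19520, measured 1.57, 1.93 and 1.46 FPKM at stage 1 and 57.6, 55.4 and 70.5 FPKM at stage 3. Its level at stage 2 was 4.6, 5.39 and 5.71 FPKM. The 3 stages did not overlap, and the rewatered buds were far above the buds in deficit. The log2 fold change of Cs8g19520 from stage 1 to stage 3 was 4.55 ± 0.14 (SE; limma adjusted p = 1.5e-09).

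The other small heat shock genes with large rises were more abundant before the deficit. The class II gene Cs4g05780 measured 44.2, 41.1 and 30.1 FPKM at stage 1 and 391, 467 and 519 FPKM at stage 3. All 3 rewatered libraries lay far above the buds before deficit, within or above the 271–428 FPKM of stage 2, and the log2 fold change was 3.55 ± 0.17 (limma adjusted p = 5.09e-08). The mitochondrial Cs9g14690 measured 11.4, 11.3 and 12.2 FPKM at stage 1 and 114, 115 and 128 FPKM at stage 3, again without overlap, a log2 fold change of 3.25 ± 0.09 (limma adjusted p = 8.46e-10). Class I genes Cs8g19490 and Cs8g19530 rose from 11.4–11.6 to 120.2–138 FPKM and from 48–51.5 to 344–378 FPKM. Cs8g19490, Cs8g19520 and Cs8g19530 lie next to each other and are alike, so reads may be shared among them. Not every member was at its peak after rewatering: the class IV gene Cs5g18500 stood at 5.3–7.03 FPKM before, 101–131 FPKM during and 33.7–40.9 FPKM after the deficit. The class I gene Cs7g32260 fell, from 24.8–25.3 to 8.65–10.4 FPKM (log2 fold change -1.31 ± 0.12, limma adjusted p = 6.87e-06). For Cs4g05770, 24.9–28.3 FPKM at stage 1 and 216–237 FPKM at stage 3, the annotations disagree, as the protein match is a methyltransferase and the description a class II heat shock protein.

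ATP-driven chaperones were called in the same direction. HSP70 and HSP90 proteins fold clients in the cytosol and HSP100 (ClpB) proteins pull aggregates apart, and 15 of the 41 tested members of these families were higher and none lower (median 0.42). The HSP90 family gene Cs9g19220 measured 7.42, 7.68 and 8.92 FPKM at stage 1 and 79.3, 83.6 and 71.1 FPKM at stage 3. Its rewatered libraries were all well above both earlier stages, stage 2 having 13.6–17.8 FPKM, and the log2 fold change was 3.13 ± 0.11 (limma adjusted p = 5.11e-09). ClpB1-like Cs5g11720 measured 11.5, 10.3 and 13.5 FPKM at stage 1 and 75.8, 73.4 and 73.3 FPKM at stage 3, without overlap, a log2 fold change of 2.57 ± 0.10 (limma adjusted p = 9.37e-09). A second HSP90 gene, Cs5g03150, rose from 5.3–6.63 to 31.4–36.5 FPKM, and HSP70 gene orange1.1t02795 from 2.84–4.56 to 21.9–23.2 FPKM.

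Abundant cytosolic HSP70 genes also rose. Cs8g18260 measured 137, 129.7 and 130.2 FPKM at stage 1 and 458, 462 and 441 FPKM at stage 3 and 173–177 FPKM at stage 2, so most of its rise lay beyond the deficit value (log2 fold change 1.77 ± 0.04, limma adjusted p = 2.84e-10). Cs7g29010 was lowest in the deficit, at 94.7–96.3 FPKM, against 148–149.6 FPKM before and 333–362 FPKM after. Under the KEGG entry for the HSP70 family, K03283, 11 of 16 tested genes were higher and none lower.

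Cochaperones that hand clients to HSP70 were called in smaller numbers, with 7 of 81 dnaJ and BAG genes higher and none lower and a list median of 0.06. The BAG family gene Cs7g11170, named from its description and not counted in the list, measured 18.4, 24.1 and 19.8 FPKM at stage 1 and 166, 162 and 175 FPKM at stage 3. Stage 3 was clearly above stage 2, at 62–73.2 FPKM, and stage 1 (log2 fold change 2.96 ± 0.10, limma adjusted p = 2.47e-09). The dnaJ gene Cs2g16560 went from 1.44–2.41 to 17.5–19.8 FPKM and Cs8g14360 from 118–121 to 358–369 FPKM. Other dnaJ genes were past their peak: Cs3g14930 measured 11.6–13.3 FPKM before, 94.7–116 FPKM in and 32.9–38.2 FPKM after the deficit, and Cs1g16820 7.65–8 FPKM, 62.6–71.2 FPKM and 18.8–20.1 FPKM.

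Of the 11 heat stress transcription factors tested, 1 was higher and 1 lower by protein match. HSF30, Cs4g18310, named from its description and not counted among them, measured 97.5, 92.7 and 92.2 FPKM at stage 1 and 452, 434 and 441 FPKM at stage 3. Stage 2 had 152–159.7 FPKM, below every rewatered library, and the log2 fold change was 2.22 ± 0.05 (limma adjusted p = 1.4e-10). HSF24-like Cs1g22660 measured 43.8, 41.7 and 43.4 FPKM at stage 1 and 93.3, 79.5 and 94.7 FPKM at stage 3, a log2 fold change of 1.03 ± 0.17 (limma adjusted p = 0.000866) that lost its call when stage 3 replicate 1 or 3 was left out, or when libraries were scaled to a common median. Heat stress factor C-1-like Cs4g15820 fell instead, from 74.4–76.7 to 21.3–28.4 FPKM (log2 fold change -1.58 ± 0.10, limma adjusted p = 3.78e-07).

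**Figure D2:**
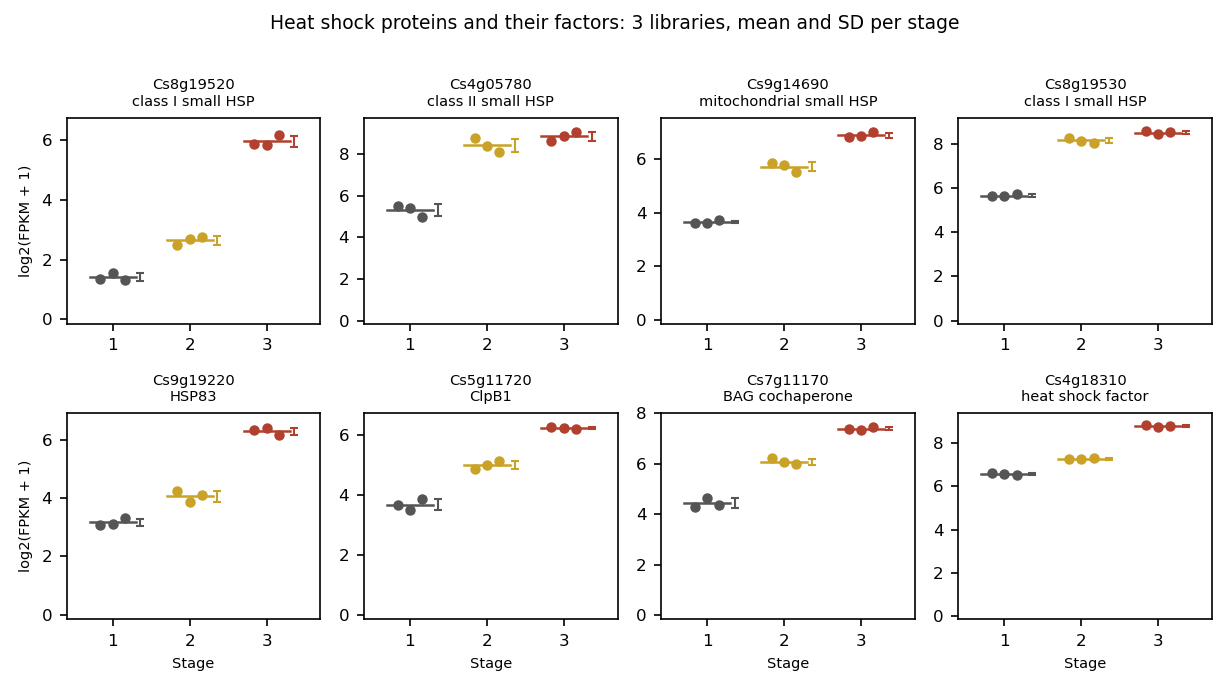
Chaperone genes and HSF30 (Cs8g19520, Cs4g05780, Cs9g14690, Cs8g19530, Cs9g19220, Cs5g11720, Cs7g11170, Cs4g18310): log2(FPKM + 1) in each library (points), with the mean (line) and SD (bar) of the 3 libraries of each stage on the horizontal axis. In every panel the stage 3 points lie above the stage 1 points, for Cs9g19220 at 71.1–83.6 FPKM against 7.42–8.92 FPKM.

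Wall-loosening genes were among the strongest rises. XTHs cut and rejoin xyloglucan, the polymer that ties cellulose fibres together, and 9 of 18 tested members were higher and 1 lower (median 0.83). Cs4g03060 measured 3.6, 3.93 and 2.67 FPKM at stage 1 and 52.4, 51.6 and 56.6 FPKM at stage 3, and at stage 2 only 0.57, 0.44 and 0.84 FPKM. It was thus lowest in the deficit and highest after it, with no overlap between any stages (log2 fold change 3.64 ± 0.15, limma adjusted p = 1.79e-08). Its neighbour Cs4g03140 had the same best match and the same course, at 7.69–8.21 FPKM, 1.04–2.59 FPKM and 78.5–93 FPKM in stages 1, 2 and 3. The adjacent Cs4g03210 and Cs4g03220 rose to 21.2–22.2 FPKM and 18.5–24.5 FPKM, and reads may be shared within this cluster. Away from it, the BRU1-like gene orange1.1t02385 measured 6.2, 5.58 and 8.88 FPKM at stage 1 and 64, 65.4 and 62.6 FPKM at stage 3, a clear separation with a log2 fold change of 3.07 ± 0.17 (limma adjusted p = 1.28e-07), while stage 2, at 4.38–6.73 FPKM, overlapped with stage 1. The most abundant riser was Cs1g21130, from 343–361 to 865–966 FPKM, and the XTH that fell was Cs8g15720, from 14.5–17 to 5.5–7.41 FPKM.

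Expansins, which loosen the wall without cutting it, were split, with 2 of 10 higher and 4 lower (median -0.24). The higher count was 1 without stage 1 replicate 3 or stage 3 replicate 3, where expansin-like B1 gene Cs2g26323 lost its call. Expansin-like A gene Cs8g01880 rose from 55.3, 58.9 and 46.6 FPKM to 202, 221 and 197 FPKM after a low of 24.5–28.2 FPKM at stage 2 (log2 fold change 1.93 ± 0.09, limma adjusted p = 4.34e-08). Expansin A1-like Cs5g10820 fell from 10.6, 9.13 and 8.78 FPKM to 1.75, 1.67 and 0.59 FPKM, with 0.17–0.91 FPKM in the deficit (log2 fold change -2.21 ± 0.26, limma adjusted p = 8.09e-05). The other 3 that fell, Cs5g07852, Cs5g07854 and Cs5g07856, are adjacent expansin-like B1 genes with log2 fold changes of -1.24, -1.47 and -1.77, and may share reads.

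Cellulose synthase genes gave 1 rise and 1 fall among 19. Cs3g09000, like CSLD3, a synthase of tip-growing cells in Arabidopsis, rose from 14.7, 14.5 and 12.7 FPKM to 65.7, 67 and 58 FPKM and had been down at 4.53–4.66 FPKM in the deficit (log2 fold change 2.11 ± 0.10, limma adjusted p = 3.02e-08). CESA7 Cs4g01990, a subunit for secondary walls, fell from 4.56–5.1 to 1.26–1.66 FPKM (log2 fold change -1.24 ± 0.22, limma adjusted p = 0.00127), a call lost in a NOISeq-style test, which sets each change against differences among replicate libraries. Of 10 xylem and laccase genes 3 were called lower and none higher (median 0.08). These 3, the xylem cysteine proteinase-like Cs2g27790, Cs2g27810 and orange1.1t05099, were not called in the NOISeq-style test.

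Members of several regulator families known from fast stress responses were called higher after rewatering. DREB (CBF) factors bind the drought and cold response element, and in the ERF and DREB list 13 of 64 tested genes were higher and 3 lower (median 0.06). The DREB1-like gene Cs6g15360 measured 3.8, 2.25 and 1.85 FPKM at stage 1 and 19.8, 28.1 and 21.2 FPKM at stage 3. At stage 2 it measured 0, 0.93 and 0 FPKM. The gene was thus nearly silent in the deficit and rose in all 3 rewatered libraries above every earlier one (log2 fold change 2.75 ± 0.29, limma adjusted p = 2.74e-05). Cs5g10240 measured 12.3, 14.2 and 11.7 FPKM at stage 1 and 93.5, 88.5 and 71.6 FPKM at stage 3, with 5.28–6.73 FPKM at stage 2 (log2 fold change 2.63 ± 0.12, limma adjusted p = 3.96e-08). The neighbours Cs9g16810 and Cs9g16820 rose from 43.8–50.7 to 189–197 FPKM and from 41.5–43.5 to 142–153 FPKM, and orange1.1t01154 from 20.5–28.1 to 91–104 FPKM. ERF109-like Cs8g05910, from 55–59.9 to 168–217 FPKM, was lower in the deficit too, at 22.9–32.8 FPKM. The fall of the WIN1-like gene Cs1g12620, from 1.66–2.97 to 0–1.27 FPKM, lost its call when stage 1 replicate 1 or 3 or stage 3 replicate 1 or 3 was left out, and with smaller pseudocounts. The fall of CRF2-like Cs5g02630 lost its call without stage 3 replicate 2 and in the NOISeq-style test. The remaining gene called lower, Cs4g07060, is named beta-galactosidase-like, so its place in the list is unclear, and its call was lost without stage 1 replicate 2.

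WRKY factors, regulators of defence, were higher in 8 of 44 and lower in none (median 0.19). WRKY33-like Cs6g09420 measured 6.44, 6.11 and 4.57 FPKM at stage 1 and 32.7, 33.2 and 31 FPKM at stage 3. Its stage 1 libraries overlapped with stage 2, at 6.33–7.36 FPKM, and all were far below stage 3 (log2 fold change 2.32 ± 0.13, limma adjusted p = 1.33e-07). WRKY31-like Cs2g02790 rose from 4.5–5.53 to 13.4–16.2 FPKM, and the adjacent WRKY53-like genes Cs5g02440 and Cs5g02450 from 46.7–49.9 to 111–126 FPKM and from 42.3–49.1 to 96.4–101 FPKM.

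U-box E3 ligases, which mark proteins for breakdown, were higher in 7 of 37 and lower in 2 (median 0.23). Cs2g17820 measured 10.3, 8.93 and 8.9 FPKM at stage 1 and 52.4, 44.8 and 46.6 FPKM at stage 3, well apart, with a log2 fold change of 2.24 ± 0.15 (limma adjusted p = 6.04e-07) and 3.76–6.25 FPKM at stage 2. PUB23-like orange1.1t04594 was close to silent before, at 0.24, 0.36 and 0.36 FPKM, and measured 5.7, 6.4 and 3.75 FPKM after (log2 fold change 2.23 ± 0.23, limma adjusted p = 2.94e-05). U-box 44-like Cs7g02620 rose from 10.3–11.7 to 40.8–44.1 FPKM. U-box 19-like Cs5g05260 fell from 46.8–51.7 to 16.3–16.6 FPKM, although stage 2, at 42–48.4 FPKM, was near stage 1.

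Among calcium sensors and calmodulin-binding proteins 8 of 98 were higher and 3 lower (median 0.18), and the protein match alone gave 1 and 1 of 44. Cs6g17590, like the calcium-binding CML23, measured 32.3, 31.1 and 38.2 FPKM at stage 1 and 102, 103 and 111 FPKM at stage 3 after 15.1–20.4 FPKM in the deficit, a log2 fold change of 1.61 ± 0.11 (limma adjusted p = 8.04e-07). The calmodulin-binding gene Cs4g01630 rose from 11.5–13.6 to 46.2–54.4 FPKM. A CBL-interacting kinase gene, Cs7g06310, measured 34.6, 33.3 and 32.5 FPKM at stage 1 and 3.67, 3.18 and 3.84 FPKM at stage 3. Most of this fall came after stage 2, which still had 22.3–28.1 FPKM (log2 fold change -2.92 ± 0.11, limma adjusted p = 6.16e-09).

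**Figure D3:**
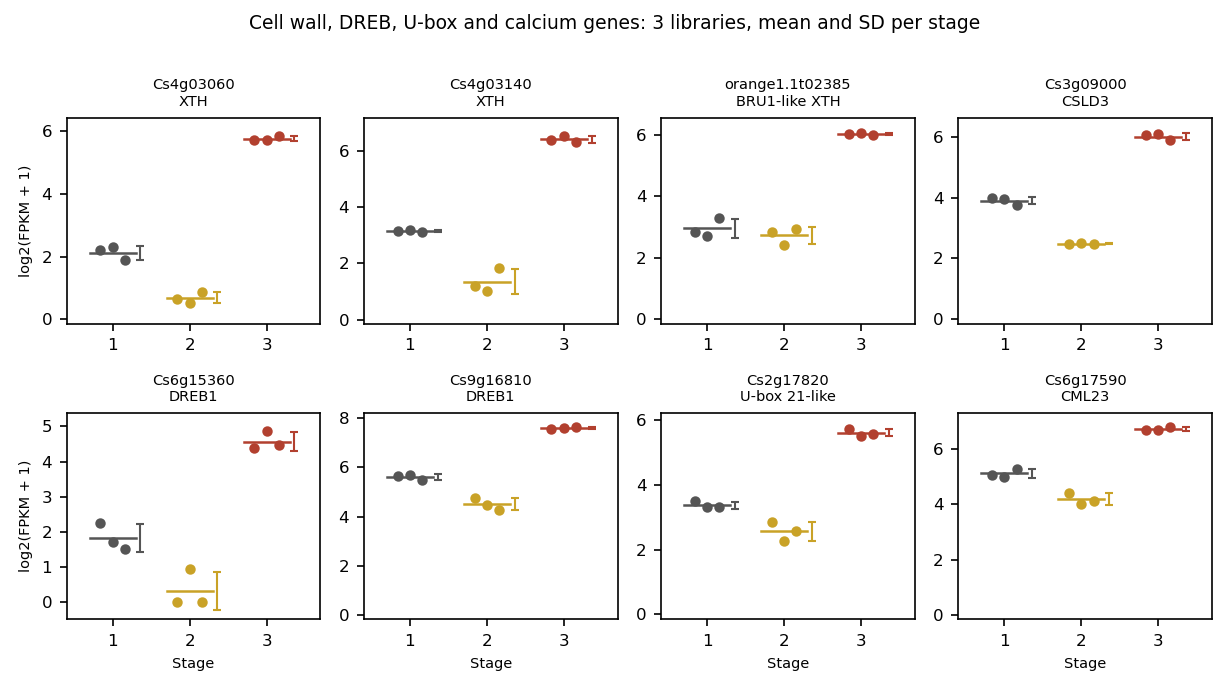
Wall, DREB, U-box and calcium genes (Cs4g03060, Cs4g03140, orange1.1t02385, Cs3g09000, Cs6g15360, Cs9g16810, Cs2g17820, Cs6g17590): log2(FPKM + 1) per library (points), mean (line) and SD (bar) of 3 libraries, by stage. Stage 3 is the highest in every panel, and in each but orange1.1t02385 the stage 2 points lie below stage 1, as for Cs9g16810 at 18.5–26 FPKM against 43.8–50.7 FPKM.

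The hormone genes did not move as one. Of 18 ABA genes found by protein match 2 were higher and 3 lower, and of 82 with KEGG members 3 were higher and 10 lower (median -0.04). Cs6g14960, described as ABI5, the factor that turns on seed and drought genes under ABA, measured 9.15, 8.26 and 6.51 FPKM at stage 1 and 0, 2.15 and 0.95 FPKM at stage 3. All 3 rewatered values were below those of stage 1, down to 0 in 1 library, and overlapped with stage 2 at 1.08–2.98 FPKM (log2 fold change -2.28 ± 0.39, limma adjusted p = 0.00102). The adjacent ABI5-like Cs6g14970 also fell, from 3.43–5.13 to 0.53–2.89 FPKM. ABA 8'-hydroxylases break ABA down, and they parted: Cs8g05940 fell from 46.7, 42.1 and 43.3 FPKM to 10.1, 10.3 and 10.1 FPKM (log2 fold change -2.01 ± 0.10, limma adjusted p = 7.07e-08) and Cs6g19380 rose from 17.6, 17.2 and 15.8 FPKM to 40.6, 39.3 and 34.3 FPKM (log2 fold change 1.13 ± 0.10, limma adjusted p = 9.43e-06). Both were low in the deficit, at 3.33–4.07 FPKM and 5.99–7.27 FPKM. The abscisic stress ripening gene Cs3g21500, whose products appear in drought and fruit ripening, held 399.5–417 FPKM and 407–441 FPKM at stages 1 and 2 and fell to 128–144 FPKM at stage 3.

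Protein phosphatases 2C, several of which block ABA signalling, were lower in 6 and higher in 1 of 54 (median -0.06). This list shares members with the ABA list, among them Cs8g19140 and Cs3g23680, so the counts of these lists are not separate. Cs8g19140 measured 178, 182 and 184 FPKM at stage 1 and 46, 47.9 and 48.6 FPKM at stage 3. Stage 2, at 139.7–176 FPKM, lay between the stages and nearer to stage 1 (log2 fold change -1.91 ± 0.07, limma adjusted p = 8.37e-09). Cs9g18330, Cs4g15360 and Cs9g18020 fell to 69.8–78.7 FPKM, 29–35.3 FPKM and 33.3–38.6 FPKM, from 179–189.6, 74.9–91.2 and 87.9–92.9 FPKM. Cs3g23680 rose, from 7.44–8.74 to 20.7–24.1 FPKM, as did Cs1g19910, like the ABA-activated kinase SAPK2 of rice, from 5.29–5.82 to 14.8–18.1 FPKM.

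Genes typical of maturing seeds, many of them ABA targets in Arabidopsis, were among the deepest falls. In the LEA, dehydrin, oleosin and seed maturation list 6 of 12 tested genes were lower and none higher, with a median of -1.11. The seed maturation gene orange1.1t02243 was one of the most abundant transcripts before the deficit, at 4701, 4694 and 4611 FPKM, and measured 729, 767 and 827 FPKM after. Stage 2 had already come down to 579–855 FPKM, overlapping with stage 3 (log2 fold change -2.59 ± 0.12, limma adjusted p = 2.34e-08). Its neighbour orange1.1t02242, an LEA gene, measured 281, 295 and 289 FPKM at stage 1 and 28.3, 20.8 and 33.7 FPKM at stage 3, apart from each other and with 45.1–68.1 FPKM between them (log2 fold change -3.36 ± 0.16, limma adjusted p = 5.01e-08). The LEA D-29-like gene Cs9g01250 fell from 209–232 to 31.7–36.6 FPKM and the seed biotin protein gene Cs2g15720 from 19.1–20.1 to 0.42–1.48 FPKM. LEA gene Cs1g13160 fell from 6.14–7.88 to 1.51–4.14 FPKM, and was at or near 0 in the deficit.

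Genes of other seed proteins were lower too. Of 8 miraculin-like genes, related to Kunitz protease inhibitors, 3 were lower and none higher (median -0.57). Cs5g16920 measured 1321, 1310.2 and 1309.7 FPKM at stage 1 and 35.5, 39.4 and 37.8 FPKM at stage 3, and 59.9–68 FPKM in the deficit. No stages overlapped, and the gene was lower still after rewatering (log2 fold change -5.09 ± 0.06, limma adjusted p = 7.85e-13). Its neighbour Cs5g16850 went from 522–554 to 117–119 FPKM, up from 70.2–77.4 FPKM at stage 2. The lectin gene orange1.1t05126, one of a family of sugar-binding proteins, measured 1026, 1015 and 1006 FPKM at stage 1 and 51.4, 53.2 and 50.4 FPKM at stage 3, a fall that stage 2, at 55.3–62.7 FPKM, already showed (log2 fold change -4.27 ± 0.06, limma adjusted p = 1.12e-12). Outside the lists, the gene described as ABA-induced, orange1.1t01448, fell from 154, 165 and 190.1 FPKM to 5.74, 4.35 and 3.13 FPKM, with 4.42–19.6 FPKM at stage 2, and the embryo yellow protein gene orange1.1t00909 from 14.5–20.2 to 0–0.83 FPKM. Both belonged to the 15 largest falls.

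More cytokinin genes were called lower than higher. By protein match 6 of 24 were lower and 3 higher (median -0.02), and with KEGG entries, which were trimmed after values were seen, 9 and 3 of 61 (median -0.05). By protein match the higher count was 1 without stage 1 replicate 3, where Cs5g31590 and the cytokinin dehydrogenase gene Cs4g06150, of cytokinin breakdown, lost their calls. Type-A response regulators are induced by cytokinin within minutes and damp its signal. The ARR4-like regulator Cs7g07940 measured 93, 93.1 and 93.2 FPKM at stage 1 and 17.9, 17.7 and 19.5 FPKM at stage 3. It had been at 8.03–9.96 FPKM in the deficit, so rewatering found it above stage 2 and far below stage 1, with no overlap (log2 fold change -2.28 ± 0.09, limma adjusted p = 7.03e-09). The ARR15-like Cs5g04810 kept the same order, 86.8–97.7 FPKM, 10.2–11.1 FPKM and 26.9–30.4 FPKM in stages 1, 2 and 3. Further type-A genes Cs3g19780, orange1.1t01850 and Cs3g01890 were lower at stage 3, with log2 fold changes of -2.19, -1.59 and -1.88. The receptor gene histidine kinase 4-like Cs2g17860 fell from 49.1–52.9 to 19–21 FPKM.

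Genes of cytokinin synthesis moved in either direction. Isopentenyltransferase 3, Cs5g31590, which makes cytokinin precursors, went from 8.05–9.93 to 17.5–21.6 FPKM after 40.7–42.5 FPKM in the deficit (log2 fold change 1.04 ± 0.10, limma adjusted p = 1.64e-05). That call was lost when stage 1 replicate 3 or stage 3 replicate 2 was left out. The activating LOG-type gene Cs4g05560 rose from 10.1–12.3 to 32.8–34.3 FPKM and a second one, Cs3g25930, fell from 36.8–40.9 to 12.3–19.4 FPKM.

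**Figure D4:**
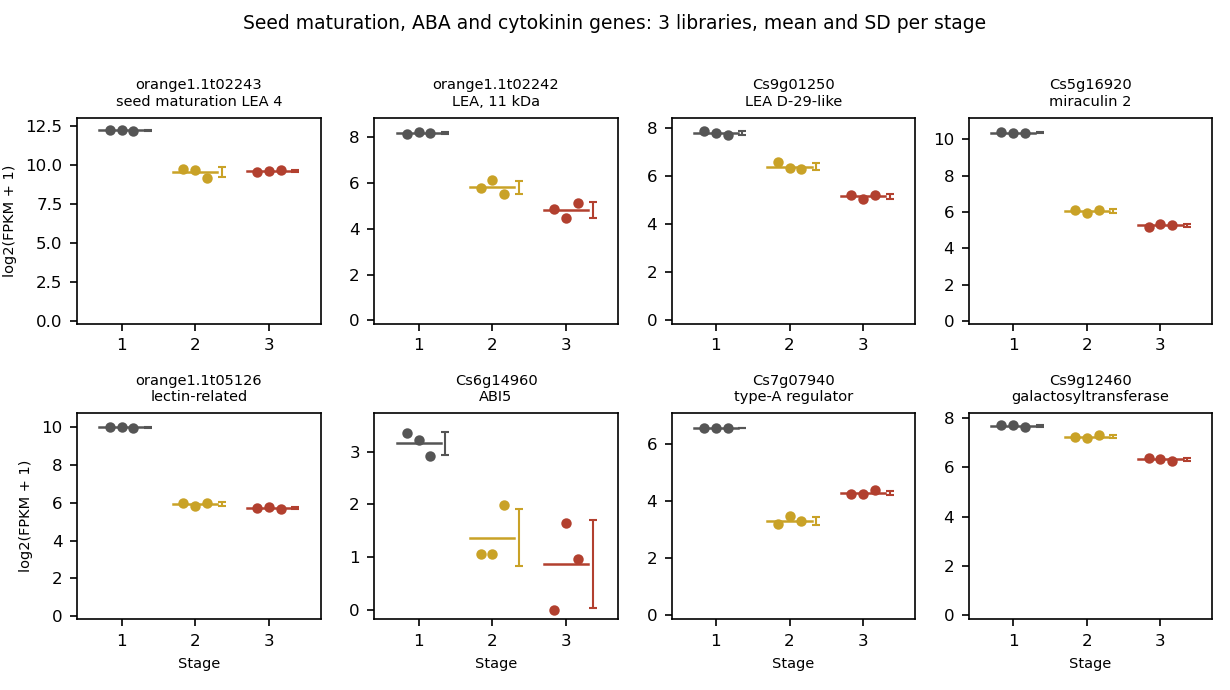
Seed-type, ABA, cytokinin and raffinose genes (orange1.1t02243, orange1.1t02242, Cs9g01250, Cs5g16920, orange1.1t05126, Cs6g14960, Cs7g07940, Cs9g12460): log2(FPKM + 1) per library (points), mean (line) and SD (bar) of 3 libraries, by stage. Stage 1 is the highest in every panel, and Cs7g07940, at 17.7–19.5 FPKM after 8.03–9.96 FPKM, is the gene with all stage 3 points above stage 2.

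Auxin genes were near the background, with 2 higher and 2 lower of 95 (median 0.01), and 1 and 2 of 48 by protein match alone. The adjacent SAUR-type genes orange1.1t04221 and orange1.1t04220, early auxin-induced genes, rose from 6.68–8.56 to 26.6–31.4 FPKM and from 5.72–9.85 to 17.9–19.6 FPKM. IAA30-like orange1.1t01781, a repressor of auxin response, fell from 36–43.6 to 10.4–14.7 FPKM, and the auxin synthesis gene YUCCA4-like Cs4g20390 from 8.38–10.1 to 1.89–2.81 FPKM. Among 17 gibberellin genes 3 were higher, all of them snakin or gibberellin-regulated peptide genes (median -0.03). This list was found by protein match, and its KEGG entries were trimmed after values were seen. Snakin-2-like Cs5g04980 measured 56.6, 52.3 and 50.2 FPKM at stage 1 and 335, 307 and 303 FPKM at stage 3, with 172–229 FPKM between them, and the log2 fold change was 2.55 ± 0.09 (limma adjusted p = 6.25e-09).

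Jasmonate genes were called in both directions. Lipoxygenases start jasmonate synthesis, and 4 of 30 genes of the list were higher and 3 lower (median 0.10). The 13-lipoxygenase gene Cs1g17380 measured 75.1, 71.3 and 67.9 FPKM at stage 1 and 247, 228 and 244 FPKM at stage 3 after a low of 23.9–25.6 FPKM in the deficit, a log2 fold change of 1.73 ± 0.06 (limma adjusted p = 4.12e-09). Allene oxide synthase Cs3g24230, the next step of the pathway, rose from 34–37.9 to 76.2–82 FPKM, and TIFY 9-like Cs7g02820, of the family that represses jasmonate response, from 20.3–28.8 to 56.3–67.2 FPKM. Lipoxygenase orange1.1t03774 fell from 33.4, 34.6 and 36.7 FPKM to 5.26, 7.12 and 4.33 FPKM and its neighbour orange1.1t03770 from 5.62–7.72 to 0.63–1.75 FPKM. These neighbours may share reads.

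Clock genes differed between the watered states as well. The list held 36 tested genes, of which 5 were higher and 2 lower (median 0.00), and by protein match alone 3 of 11 were higher and none lower. The 2 lower ones, Cs2g13230 and Cs2g24030, are zinc finger genes of the CONSTANS-like type that carry clock KEGG entries. Cs2g13230 is also in the CONSTANS-like list below, so the counts of these lists are not separate. GIGANTEA, Cs3g21790, an evening gene of the Arabidopsis clock that promotes flowering, measured 5.64, 4.97 and 4.21 FPKM at stage 1 and 25.9, 25 and 26.5 FPKM at stage 3. The peak lay in the deficit, at 87.3, 91.3 and 101 FPKM, and the rewatered level was above stage 1 in all libraries (log2 fold change 2.18 ± 0.10, limma adjusted p = 3.08e-08). The pseudo-response regulator gene PRR95-like orange1.1t00571 measured 4.6, 3.7 and 3.64 FPKM at stage 1 and 38.5, 30.8 and 32.3 FPKM at stage 3, with 44.4–49.7 FPKM at stage 2 (log2 fold change 2.81 ± 0.11, limma adjusted p = 9.37e-09). PRR7-like Cs6g03960 and PRR gene Cs8g17520 rose from 9.03–9.1 to 40.2–47.5 FPKM and from 11.5–15 to 38.2–42.1 FPKM.

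Other clock genes did not reach the fold limit. The morning gene LHY-like orange1.1t00580 measured 1040.0, 1026 and 1011 FPKM at stage 1 and 883, 885 and 856 FPKM at stage 3, a log2 difference of -0.23, and TOC1-like orange1.1t04712 measured 57, 59 and 53 FPKM at stage 1 and 29.3, 29.5 and 27.2 FPKM at stage 3, a difference of -0.95. ELF3-like Cs1g19130 and Cs4g18880 differed by -0.51 and -0.59, and Cs7g31110, described as ELF4-like and not in the list, by -0.23. The hour at which buds were collected is not stated in the sources used here, and its part in the levels of clock genes and of others with a daily rhythm was not tested.

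Light-harvesting and photosystem genes were higher in 11 of 40 and lower in none (median 0.28). Cs2g03780, a chlorophyll a-b binding protein of the photosystem II antenna, measured 769, 857 and 809.7 FPKM at stage 1 and 2111, 2191 and 2768 FPKM at stage 3. All rewatered libraries exceeded those before deficit, and stage 2, at 1419–1939 FPKM, lay between them (log2 fold change 1.53 ± 0.12, limma adjusted p = 2.91e-06). Cs5g10800 rose from 40.9–45.3 to 130.1–135 FPKM, Cs7g27290 from 84–95.2 to 240.3–246 FPKM and Cs6g08260 from 92.3–99.5 to 244–259.7 FPKM, each below its deficit level. Their deficit levels were 157–162 FPKM, 382–419.5 FPKM and 324–371 FPKM.

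CONSTANS-like factors link day length to flowering in Arabidopsis, and 4 of 23 were lower and 1 higher (median -0.03), or 1 and 1 of 7 by protein match alone. CONSTANS-LIKE 1-like Cs5g15940 rose from 112, 106 and 112 FPKM to 243, 244 and 245 FPKM (log2 fold change 1.14 ± 0.05, limma adjusted p = 2.17e-08). CONSTANS-LIKE 9-like Cs2g19010 went from 94.8, 96 and 90.3 FPKM up to 175–191 FPKM in the deficit and down to 33.9, 36.7 and 34.6 FPKM after it (log2 fold change -1.39 ± 0.06, limma adjusted p = 1.28e-08). Cs2g13230 and Cs2g21940 fell with log2 fold changes of -1.76 and -1.16, as did Cs2g24030, of the clock list only, with -1.35. CONSTANS-LIKE 2-like Cs6g19280 fell from 235–249.9 FPKM to 116–126 FPKM (log2 fold change -1.02 ± 0.05, limma adjusted p = 5.84e-08), a call lost without stage 3 replicate 2.

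In the PEBP family of FT-like signals, the MOTHER OF FT AND TFL1-like gene Cs2g06960 (MFT), which acts in ABA responses of Arabidopsis seeds, measured 165, 154 and 164 FPKM at stage 1 and 53.3, 61.7 and 54.7 FPKM at stage 3. Stage 3 was below stage 2, at 69.7–83.6 FPKM, and far below stage 1 (2.85-fold lower in mean FPKM, limma adjusted p = 1.22e-07). Cs8g15080 is described as BROTHER OF FT AND TFL1 (BFT), a repressor of flowering in Arabidopsis, while its protein match is a CEN-like protein 2. It measured 3.62, 1.96 and 2.52 FPKM at stage 1 and 5.39, 6.52 and 7.49 FPKM at stage 3, with 1.01, 0 and 0 FPKM in the deficit. The groups did not overlap and the log2 fold change was 1.03 ± 0.29 (limma adjusted p = 0.0221). However, the call was lost when stage 1 replicate 2 or 3 or stage 3 replicate 2 or 3 was left out. It was also lost with other pseudocounts, after median scaling, at an adjusted p under 0.01 and in the NOISeq-style test. The FLOWERING LOCUS T gene Cs6g05140, the mobile flowering signal, measured 0.55, 1.44 and 1.09 FPKM at stage 1 and 0.77, 0 and 0.53 FPKM at stage 3, overlapping levels near the filter and no call (log2 difference -0.52, limma adjusted p = 0.222).

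SPL factors, which promote the passage to flowering and are held down by miR156 in Arabidopsis, gave 1 fall among 7 (median -0.27). Cs5g12260, described as SPL6 while its protein match is a 12-like member, measured 76.7, 71.9 and 77.8 FPKM at stage 1 and 28.2, 30.8 and 30.2 FPKM at stage 3, with 35.1–42 FPKM at stage 2 (log2 fold change -1.31 ± 0.08, limma adjusted p = 2.74e-07). SPL9 orange1.1t02265, and SPL8 Cs1g03630 and SPL13 orange1.1t02597, named from their descriptions, were not past the fold limit, with log2 differences of -0.43, -0.63 and -0.61. In each of these 3 genes the stage 3 libraries lay between the higher stage 1 and the lower stage 2 values, as for SPL8 with 51.7–55.2 FPKM between 80.1–86.7 FPKM and 35.9–38.5 FPKM.

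MADS-box genes, which specify meristems and floral organs, were near the background with 1 higher and 1 lower of 31 (median 0.06). The riser, Cs5g10810, is not a clear member, since its protein match is a FLOWERING LOCUS C-like factor while its description and KEGG entry are those of a chlorophyll a-b binding protein. It measured 32.6–33.4 FPKM at stage 1 and 73.2–78.3 FPKM at stage 3. The gene that fell, orange1.1t02588, was scarce, at 4.5, 3.52 and 5.6 FPKM and 2.13, 0.4 and 2.26 FPKM (log2 fold change -1.17 ± 0.38, limma adjusted p = 0.0383), and its call was lost with replicate number as a block and without any 1 of the stage 1 libraries or stage 3 replicate 2. SEPALLATA 1-like Cs7g11800, a factor of all floral organs, measured 6.16, 7.26 and 6.85 FPKM at stage 1 and 8.36, 11.6 and 9.32 FPKM at stage 3, a log2 difference of 0.46 that was not called (limma adjusted p = 0.262). None of 18 meristem and boundary genes was called by limma or in a NOISeq-style test, though 1 was without stage 1 replicate 2. At an unadjusted p under 0.05, 5 were higher and 2 lower. Over all genes, 4845 of 17729 passed even an adjusted p under 0.05 without the fold limit, so these counts are not read as a shift of the list. The homeobox gene Cs3g16460, knotted-1-like 2, came closest to the fold limit among the meristem markers named here, at 70.3–82.3 FPKM and 139–148 FPKM, and SHOOT MERISTEMLESS-like Cs2g02590 measured 52.2–61.9 FPKM and 65.8–75.6 FPKM.

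**Figure D5:**
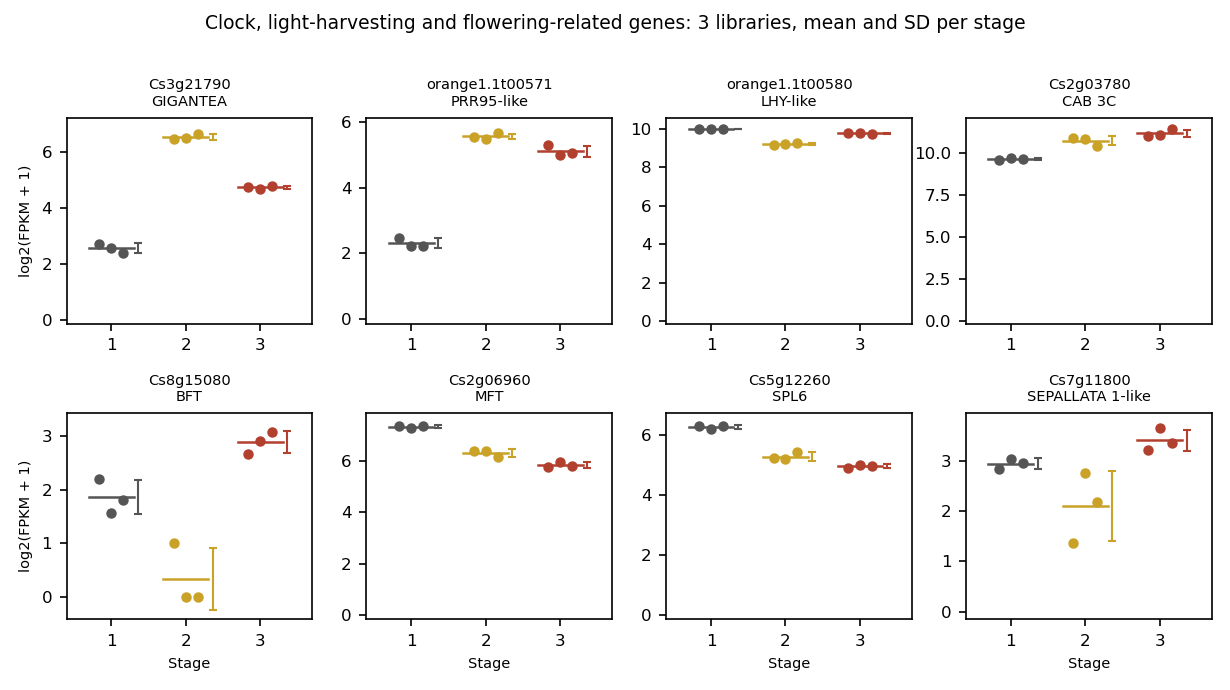
Clock, light-harvesting and flowering genes (Cs3g21790, orange1.1t00571, orange1.1t00580, Cs2g03780, Cs8g15080, Cs2g06960, Cs5g12260, Cs7g11800): log2(FPKM + 1) per library (points), mean (line) and SD (bar) of 3 libraries, by stage. GIGANTEA Cs3g21790 stays above stage 1 after its deficit peak, at 25–26.5 FPKM against 4.21–5.64 FPKM, and MFT Cs2g06960 and SPL6 Cs5g12260 step down to 53.3–61.7 FPKM and 28.2–30.8 FPKM.

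Histone genes package DNA and are made mostly in dividing cells. Of 37 histone genes 6 were lower and none higher (median -0.40). The linker histone H1 gene Cs1g25120 measured 1412, 1379.6 and 1406 FPKM at stage 1 and 681, 641 and 720.3 FPKM at stage 3, without overlap (log2 fold change -1.04 ± 0.05, limma adjusted p = 7.08e-08). Histone H3 gene Cs1g20090 went from 17.3–19.4 through 0.48–1.52 FPKM in the deficit to 4.79–5.49 FPKM, a partial return, and H2A genes Cs8g18050 and Cs3g14190 from 27.9–30.3 to 5.62–13.8 FPKM and from 16–23.9 to 4.49–4.76 FPKM. Histone genes are near-identical copies, so their reads may be shared. Among 94 cyclins, CDKs and mitotic genes 2 were lower and none higher (median -0.11), shares below those over all genes. One of them, mitotic cyclin Cs6g16880, went from 2.51–3.9 to 0.41–1.23 FPKM, a call lost without stage 3 replicate 3. Its call and that of the other gene, orange1.1t01111, were both lost with a pseudocount of 0.01 and in the NOISeq-style test.

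Genes of secondary metabolism were called lower more often than higher. Of 30 terpene synthases 4 were lower and none higher (median -0.29), all 4 matching gamma-terpinene synthase, which makes a monoterpene of lemon oil, and as close copies they may share reads. orange1.1t05292 measured 36.1, 27.1 and 31.7 FPKM at stage 1 and 3.94, 5.05 and 5.08 FPKM at stage 3, a clear fall (log2 fold change -2.52 ± 0.27, limma adjusted p = 3.04e-05), and Cs7g17670 and Cs7g17640 reached 1.29–2.21 FPKM and 0.74–0.99 FPKM from 5.14–8.23 and 2.54–4.28 FPKM. Flavonoid and phenylpropanoid enzymes were lower in 11 of 163 and higher in 3 (median -0.12). Chalcone synthase, the entry to flavonoids, fell in Cs2g14720 from 222–237 to 94–99.3 FPKM and in Cs3g19360 from 81.7–87.5 to 27.4–37.1 FPKM, although Cs3g19360 had been higher in the deficit, at 129–134 FPKM. Phenylalanine ammonia-lyase Cs6g11940, the entry to phenylpropanoids, fell from 73.8–74.2 to 33–35.9 FPKM.

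Sugar genes linked to drought went either way, with 2 higher and 2 lower of 22 raffinose and trehalose genes (median -0.25). Trehalose-phosphate phosphatase D-like Cs3g18450, which removes the sugar signal trehalose 6-phosphate, measured 4.93, 3.01 and 3.9 FPKM at stage 1 and 33.2, 29.2 and 29.5 FPKM at stage 3. The deficit level was lower than both, at 1.18–2 FPKM (log2 fold change 2.69 ± 0.18, limma adjusted p = 6.54e-07). The raffinose synthase-like gene Cs9g12460, of a pathway for protective sugars, fell from 210.3, 207 and 200.3 FPKM to 82.1, 80.5 and 75 FPKM (log2 fold change -1.37 ± 0.05, limma adjusted p = 7.03e-09). SWEET genes, matched to bidirectional sugar transporters, gave both falls among 21 sugar transporters: Cs3g14550 from 64–71.4 to 17–20.8 FPKM and orange1.1t02627 from 18.2–22.4 to 5.04–5.15 FPKM.

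Sulfate genes were called in one direction. Of 11 tested 5 were higher and none lower (median 0.69), covering uptake and the steps of reduction. ATP sulfurylase Cs9g07750, which activates sulfate, measured 95.8, 101 and 101 FPKM at stage 1 and 252, 267 and 256 FPKM at stage 3. Every rewatered library was above every earlier one, stage 2 having 153–167 FPKM (log2 fold change 1.37 ± 0.05, limma adjusted p = 6.4e-09). Adenylylsulfate reductase Cs2g02980 measured 124, 131 and 136 FPKM at stage 1 and 345, 335 and 328 FPKM at stage 3 and kept the same order (log2 fold change 1.36 ± 0.05, limma adjusted p = 4.12e-09). Sulfite reductase Cs2g30390 rose from 29.2–34.5 to 72.3–78 FPKM, and the sulfate transporter genes Cs1g14530 and Cs9g07580 from 1.94–2.04 to 6.6–7.3 FPKM and from 12.9–16 to 30.9–32.2 FPKM.

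Among 57 phosphate and nitrogen transport genes 3 were higher and 5 lower (median -0.04), and by protein match alone 2 and 1 of 28. The nitrite transporter-like gene Cs7g13190 measured 91.4, 91.6 and 90.0 FPKM at stage 1 and 20.3, 20.6 and 18.5 FPKM at stage 3 and the ammonium transporter gene Cs5g25370 65.8, 69.5 and 65.5 FPKM at stage 1 and 18.8, 15.2 and 19.8 FPKM at stage 3. Neither overlapped, and both had already been low at stage 2, at 23.8–25.5 FPKM and 17.5–22.9 FPKM (log2 fold changes -2.15 ± 0.07 and -1.85 ± 0.12, limma adjusted p = 2.04e-09 and 3.78e-07). Phosphate transporter 1-4-like Cs5g29860 rose from 2.78–4.32 to 11.6–14.6 FPKM. The other rises, of Cs8g12710 and Cs9g09780, and the fall of Cs3g01590 were not called in the NOISeq-style test. Cs8g12710 also lost its call with smaller pseudocounts, and Cs9g09780 without stage 1 replicate 3 or stage 3 replicate 1.

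Annotation terms were counted where at least 15 tested genes carried them. Beside the HSP70 entry K03283, the largest shares of genes called higher were in K08235 (XTH, 9 of 18), K13993 (small heat shock proteins, 17 of 36) and the process generation of precursor metabolites and energy (10 of 36). The heat shock and XTH lists above also took members by KEGG entry, so their KEGG counts here are not separate from those of the lists. Among GO terms, the largest shares called lower were in fatty acid biosynthetic process (4 of 15), chromatin (5 of 22) and phenylpropanoid biosynthetic process (4 of 19). The KEGG entries K07385, K12467 and K15638 each had 4 of 15 genes lower, K01365 4 of 16 and K01183 4 of 18. K07385 and K12467 also had the same median, -0.55, and may hold the same genes. Such entries can share genes with each other and with the lists above, so they are not read as separate results. Response to stress held 8 higher and 5 lower of 80. Cytosolic ribosomal proteins, the core of protein synthesis, had no call among 44 tested genes by limma or in the NOISeq-style test (median 0.04). Without stage 1 replicate 3, 1 was called. At an unadjusted p under 0.05, 9 were higher and 3 lower, and over all genes 4845 of 17729 passed even an adjusted p under 0.05 without the fold limit.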

How the data were processed

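RNA from lemon buds was sequenced in 9 libraries, 3 per stage. Per the methods, the authors used the FASTX-Toolkit for quality filtering and BWA for mapping on the genome of sweet orange, with versions and strand setting not given in the sources used here, and deposited FPKM per gene with protein matches, GO and KEGG annotation. The authors' fold change and probability columns, from NOISeq, were not used. FPKM keeps no depth, so precision rests on the 3 libraries per stage.

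Groups followed the labels. From the deposited FPKM, log2(FPKM + 1) was fitted with limma 3.58.1 (trended variance, R 4.3.3) over all 9 libraries, for genes at 1 FPKM or more in at least 3 libraries, and stage 3 was contrasted with stage 1. Calls needed a Benjamini-Hochberg adjusted p under 0.05 and a log2 fold change of at least 1. Tables and figures used Python 3.11.15, numpy 2.4.6, pandas 2.3.3 and matplotlib 3.10.9, and the fit was tested on simulated data. Alternatives changed the pseudocount, filter, scaling, variance trend, libraries, thresholds, replicate block and test.

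The 37 gene lists, taken from words in the protein match, and the genes named were chosen with earlier results of these data known. Members found by KEGG entry were added after the table was seen, and those of the cytokinin and gibberellin lists were trimmed after their values were seen. Genes named are the up to 4 largest non-overlapping rises and falls of each list, the 15 largest of each over all genes, flowering genes the study names, and the tested clock and floral organ genes; a selection of these, and some genes outside the rule chosen after their values were seen, is printed. Sequences were not printed.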

Additional observations from a re-analysis of the deposited data

How the results depend on the processing

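The count of 874 called genes became 1030 (568 higher, 462 lower) with a pseudocount of 0.1, 989 with 0.01, 863 without the filter, 688 (387 and 301) with a filter at 5 FPKM, 869 (443 and 426) after median scaling, 881 after quantile normalization, 852 without the variance trend, 887 with the 6 libraries alone, 777 at an adjusted p under 0.01 and 660 (379 and 281) in a NOISeq-style test. Without the fold limit it was 4845 (2552 higher, 2293 lower). With each library left out in turn, 854 to 896 genes were called. Scaling moved the median log2 fold change of all genes from 0.01 to -0.03 or -0.01.

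Labels share replicate numbers across stages, but same-numbered libraries of stages 1 and 3 did not deviate together (correlations across genes of 0.012, -0.011 and -0.027), so the numbers were not taken to pair them. With replicate number as a block the count was 872 (480 higher), and 863 of the main calls were kept.

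Of 74 counts of members called (each list by protein match, in each direction), 18 moved by over 1.5 times when some library was left out, by at most 2 genes each. Of the 162 genes called among those the naming rule selects, 123 kept their call in all 21 alternatives, 25 lost it in the NOISeq-style test, 19 when some library was left out and 2 under the block, and none reversed. Of the genes printed, Cs1g14530, Cs7g17640 and Cs7g17670 were among those not called in the NOISeq-style test, and Cs3g01890, Cs6g15360 and Cs9g08460 among those lost with a pseudocount of 0.01. With 3 libraries per stage and FPKM without read counts, calls near the fold limit and of scarce genes are the least certain.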

Other observations

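Further genes outside the lists, chosen after their values were seen, also differed between stages 3 and 1. The ADP-glucose pyrophosphorylase gene Cs8g07230, which makes the precursor of starch, went from 53.4–57 through 201–231 FPKM in the deficit to 284–325 FPKM, and the glucose 6-phosphate translocator gene Cs2g07720 from 55.8–61.3 to 280.3–283 FPKM, with 50.5–54.3 FPKM at stage 2 (log2 fold changes 2.44 ± 0.07 and 2.25 ± 0.05). The ascorbate oxidase homolog Cs8g01960 and the bHLH92-like factor Cs9g08460 rose from 1.47–1.72 to 29.6–31.5 FPKM and from 2.4–4.97 to 40.2–43.7 FPKM, and had been lower in the deficit, at 0.2–1.23 FPKM and 0–0.92 FPKM. The gene described as response to low sulfur 3, orange1.1t02887, rose from 229–253 to 711–776 FPKM.

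Others chosen in the same way were lower at stage 3. Inositol-3-phosphate synthase Cs1g01700, the first step to inositol, measured 670.4, 625 and 631 FPKM at stage 1 and 289.6, 270.0 and 273 FPKM at stage 3, the inositol transporter gene orange1.1t03682 631, 662 and 633 FPKM at stage 1 and 253, 249 and 237 FPKM at stage 3, and galactinol synthase Cs3g15460, which uses inositol, 259, 249 and 261 FPKM at stage 1 and 77.3, 87.3 and 89.2 FPKM at stage 3. None of these 3 genes overlapped between the stages (log2 fold changes -1.21 ± 0.05, -1.38 ± 0.04 and -1.59 ± 0.06). Ferritin-3 gene Cs6g09150, for plastid iron storage, fell from 474–481 to 106–111 FPKM, and the tonoplast dicarboxylate transporter gene Cs2g02120, which moves malate into the vacuole, from 538–549 to 116–127 FPKM. NF-Y subunit A gene Cs9g12370 and translocator homolog Cs5g32930 fell from 192–204 to 43.7–47.1 FPKM and from 601–603 to 148–153 FPKM.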
